A study of Homo sapiens with 10 samples.

Results

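The DNA replication machinery was described through 43 genes that encode its core proteins, out of 19821 protein-coding genes on chromosomes 1 to 22 and X. They were taken from a list by name, and all 43 were found in the RefSeq gene table of assembly GRCh38.p14. A gene counted as having a target where a peak of that target lay within 1 kb of either end of the gene record, which is called a gene end below. CUT&Tag, in which an antibody directs a transposase to cut and tag nearby DNA, was run on HCT116, an established human colorectal carcinoma line. The antibodies were against POLR1A and POLR2A, the largest subunits of RNA polymerases I and II, and 2 histone marks, H3K4me3 of active promoters and H3K9me3 of heterochromatin. The 10 samples were 3 each for POLR1A, POLR2A and H3K9me3 and 1 for H3K4me3, all titled WT, with no drug, allele or tag in their labels. Each target had 1 peak list, and those of POLR1A, POLR2A and H3K9me3 name no replicate, so no value below carries a replicate error and no test between targets was possible.

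The lists held 3812 POLR1A, 19997 POLR2A, 17181 H3K4me3 and 16414 H3K9me3 peaks on these chromosomes. Each peak carries the authors' fold enrichment, a linear ratio over the peak caller's background, which served here only to rank and describe peaks within 1 list. As a check of the cell line, 9 of 12 intestinal epithelial marker genes had a POLR2A peak and 9 had H3K4me3, among them EPCAM and CDX2, while VIL1, CDX1 and CLDN7 had neither. POLR2A was found at 2 of 6 leukocyte, 0 of 6 fibroblast, 1 of 5 hepatocyte and 2 of 5 neuron markers, and POLR1A at none of the 34 markers. In the same order, H3K4me3 was found at 0, 1, 1 and 2 of these markers. Over all protein-coding genes the shares were 41.3% for POLR2A, 54.6% for H3K4me3 and 11.2% for POLR1A. The neuron share of POLR2A (40.0%) was thus near that of all genes.

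Chromosomes are copied from many origins. As background, the origin recognition complex (ORC) marks an origin, CDC6 and CDT1 load the MCM2-7 ring there, and CDC45 and the GINS complex turn that ring into an active helicase. DNA polymerase alpha with its primase lays down primers, polymerase epsilon extends the leading strand and polymerase delta the lagging strand, held on DNA by the PCNA clamp that RFC loads. RPA covers exposed strands, FEN1 trims flaps and LIG1 seals the remaining nicks. Many of these genes are known targets of E2F transcription factors, which drive their transcription at the start of S phase. They are transcribed by RNA polymerase II, whereas RNA polymerase I is known for the ribosomal RNA genes.

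Promoter sequences of 5 genes show the range of states found. Each is the 250 bases before a RefSeq start (GRCh38.p14), written 5′ to 3′ on the gene's strand, with E2F-type motifs and CCAAT boxes in capitals on either strand. ORC6 (chr16:46689409-46689658, plus strand) is shown because it held the strongest POLR1A peak of the group and peaks of all 4 targets. PCNA (chr20:5126623-5126872, minus strand) held both polymerases. CDC6 (chr17:40287629-40287878, plus strand) had the strongest POLR2A peak without POLR1A, and MCM6 (chr2:135876444-135876693, minus strand) is 1 of the MCM2-7 genes. MCM6 is not typical of them in motifs, with 4 E2F-type matches, against 0 at MCM2, 1 at MCM3 and 2 at MCM7. MCM4 and MCM5 have no listed start. POLE4 (chr2:74958393-74958642, plus strand, inside an annotated long non-coding RNA record) had no peak of any target.
ORC6: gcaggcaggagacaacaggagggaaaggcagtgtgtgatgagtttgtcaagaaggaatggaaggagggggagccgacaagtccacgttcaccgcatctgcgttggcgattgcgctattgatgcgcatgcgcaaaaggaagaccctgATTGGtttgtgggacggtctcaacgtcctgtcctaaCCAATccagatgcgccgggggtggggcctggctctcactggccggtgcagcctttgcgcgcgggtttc
PCNA: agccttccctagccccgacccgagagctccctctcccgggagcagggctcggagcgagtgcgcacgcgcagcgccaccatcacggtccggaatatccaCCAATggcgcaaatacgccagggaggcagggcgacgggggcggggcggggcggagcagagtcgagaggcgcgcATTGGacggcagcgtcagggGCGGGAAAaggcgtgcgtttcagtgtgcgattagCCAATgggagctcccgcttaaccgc
CDC6: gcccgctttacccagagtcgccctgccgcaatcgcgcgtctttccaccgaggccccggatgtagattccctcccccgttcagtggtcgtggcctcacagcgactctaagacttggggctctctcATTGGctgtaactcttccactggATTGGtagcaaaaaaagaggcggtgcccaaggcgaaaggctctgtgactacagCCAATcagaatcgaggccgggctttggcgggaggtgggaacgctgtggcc
MCM6: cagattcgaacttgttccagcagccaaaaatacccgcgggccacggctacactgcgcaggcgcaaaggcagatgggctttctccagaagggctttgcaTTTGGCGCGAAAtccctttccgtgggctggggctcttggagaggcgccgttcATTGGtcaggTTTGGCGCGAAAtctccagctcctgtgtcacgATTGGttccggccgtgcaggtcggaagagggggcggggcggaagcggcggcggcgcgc
POLE4: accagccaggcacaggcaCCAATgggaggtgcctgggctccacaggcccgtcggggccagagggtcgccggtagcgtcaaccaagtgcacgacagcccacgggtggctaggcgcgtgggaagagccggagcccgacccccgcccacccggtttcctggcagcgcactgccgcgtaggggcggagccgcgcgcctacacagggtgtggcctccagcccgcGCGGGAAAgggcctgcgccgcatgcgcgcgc

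All 250 printed bases of ORC6 lay inside its POLR1A peak and inside its POLR2A peak, and 97 of them inside an H3K9me3 peak. In PCNA, 233 of the printed bases fell in the POLR1A peak and all 250 in the POLR2A peak. The CDC6 stretch lay wholly in a POLR2A peak, with 148 bases in H3K4me3 and 0 in POLR1A. In MCM6, 207 bases lay in POLR2A, 205 in H3K4me3 and 0 in POLR1A.

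Nearly all replication genes carried RNA polymerase II and the promoter mark, and a minority carried POLR1A. POLR2A was found at 37 of the 43 genes (86.0%), against 41.3% of all protein-coding genes. H3K4me3 was found at 40 (93.0%), against 54.6%. POLR1A was found at 9 (20.9%), against 11.2%, and H3K9me3 at 2 (4.65%), against 2.7%. These 9 POLR1A genes were ORC2, ORC4, ORC6, CDC45, POLD1, POLE3, PCNA, RPA2 and LIG1, and at each of them POLR2A lay at the same end (20.9% against 10.7% of all genes). Only 3 genes, ORC1, POLE4 and RPA3, had no peak of any target at an end (6.98%, against 42.8%), and 3 more, CDT1, POLD2 and RFC5, had H3K4me3 without POLR2A (6.98%, against 14.9%). Among peaks with a −log10 q of at least 5, POLR1A remained at 4 of the 43 genes, ORC6, LIG1, POLD1 and PCNA (5.36% of all genes). With each list reduced to its 3812 peaks of highest fold enrichment, POLR2A was found at 20 of the 43 genes (17.3% of all genes) and H3K4me3 at 18 (17.8% of all genes).

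**Figure D1:**
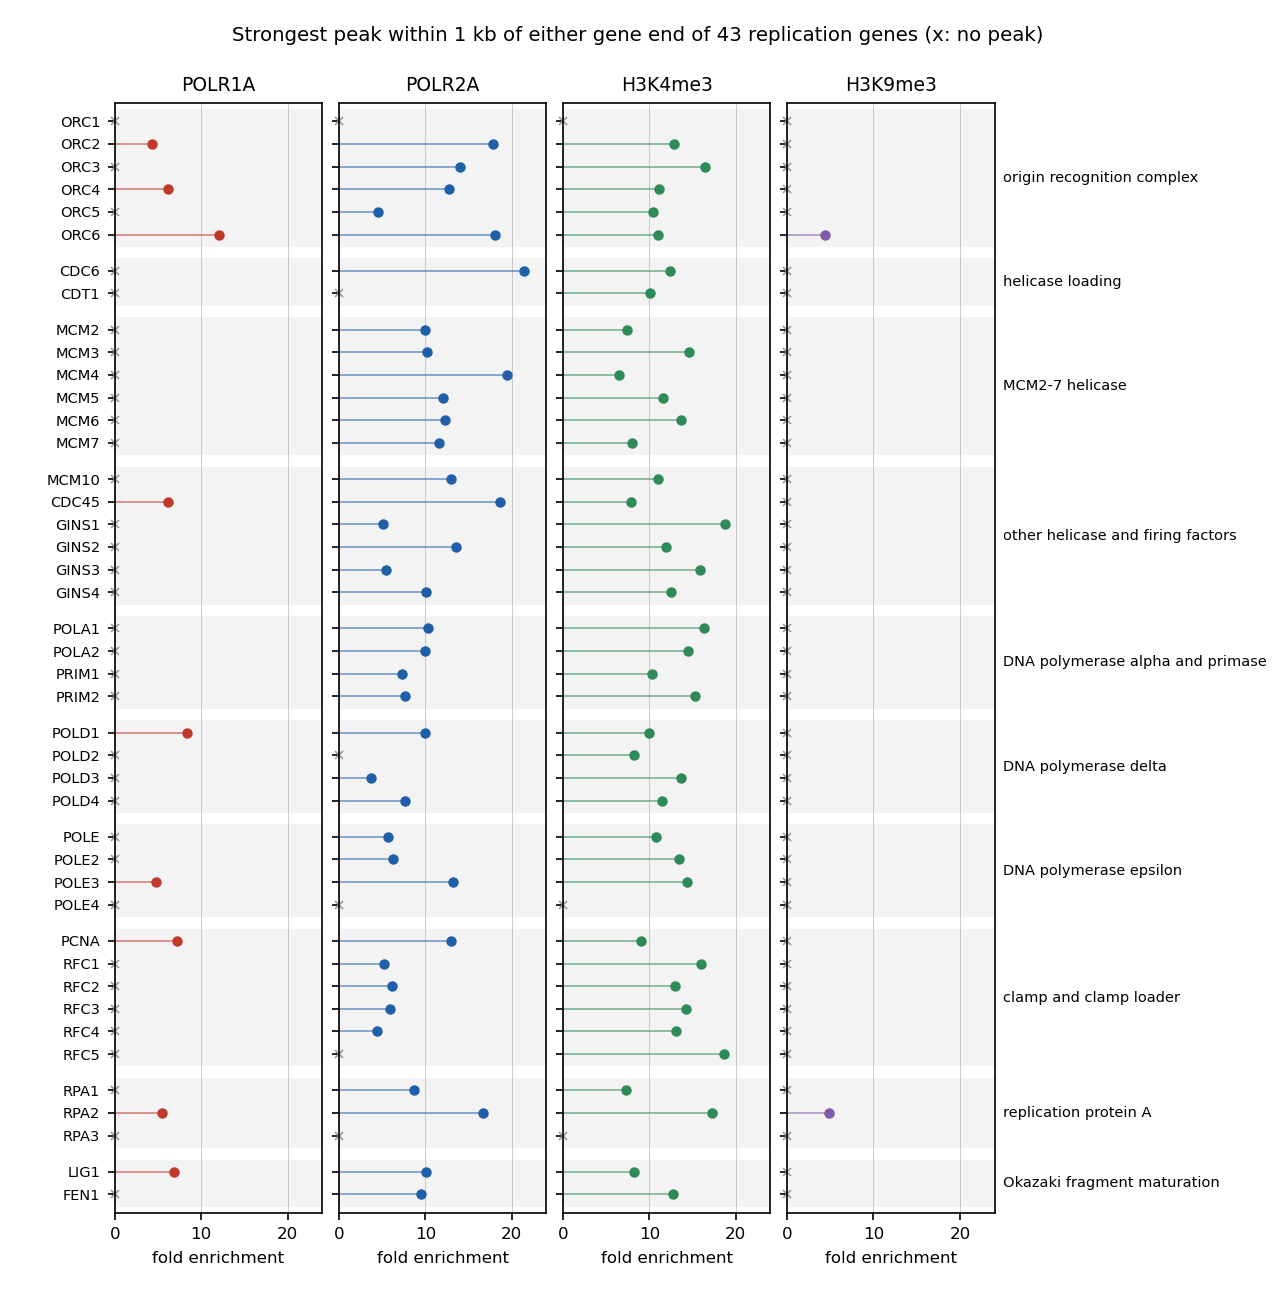
Highest fold enrichment at the gene ends for each of the 43 replication genes, with the 4 targets in columns, genes grouped by role and crosses for no peak; values are comparable only within a column. POLR2A and H3K4me3 points are present for 37 and 40 genes, POLR1A points for 9, and H3K9me3 points for ORC6 and RPA2 only.

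Among genes with a peak, POLR2A and H3K4me3 medians were above those of all genes in the whole lists and below them in lists of equal length. The median POLR2A fold enrichment was 10.05 over 37 replication genes, with a range of 3.67 to 21.5, against 8.87 over all 8192 protein-coding genes with POLR2A. The H3K4me3 median was 12.5 over 40 genes, with a range of 6.49 to 18.7, against 11.05. For POLR1A the medians were 6.20 over 9 genes and 6.08 over all 2213 genes, a small difference. In number, 23 of 37 replication genes lay above the POLR2A median of all genes and 25 of 40 above that of H3K4me3. With lists of equal length the medians were 12.997 against 13.5 for POLR2A and 14.5 against 15.01 for H3K4me3.

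Other genes of DNA replication and the cell cycle were set beside the machinery, with no test of a difference. Of 29 regulators and accessory factors, 21 had POLR2A, 29 had H3K4me3, 8 had POLR1A and 0 had H3K9me3. All-gene shares were 41.3% for POLR2A, 54.6% for H3K4me3, 11.2% for POLR1A and 2.7% for H3K9me3. The regulators' strongest POLR1A peaks were at TOP1, which relaxes supercoils ahead of forks (8.21), TICRR, a firing factor (7.50), RIF1, a timing regulator (5.58), and RNASEH2A, which removes ribonucleotides (4.98, with no POLR2A peak). Of 16 genes of nucleotide supply and chromatin assembly, 12 had POLR2A, 14 had H3K4me3 and 4 had POLR1A, namely TK1 (6.20), NASP (4.46), DUT (4.25) and TYMS (3.92). POLR1A was found at 3 of 13 cyclin and cyclin-dependent kinase genes, CDK4 (10.6), CCNB1 (8.38) and CDK2 (6.70), with POLR2A at 10 and H3K4me3 at 11 of the 13.

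**Figure D2:**
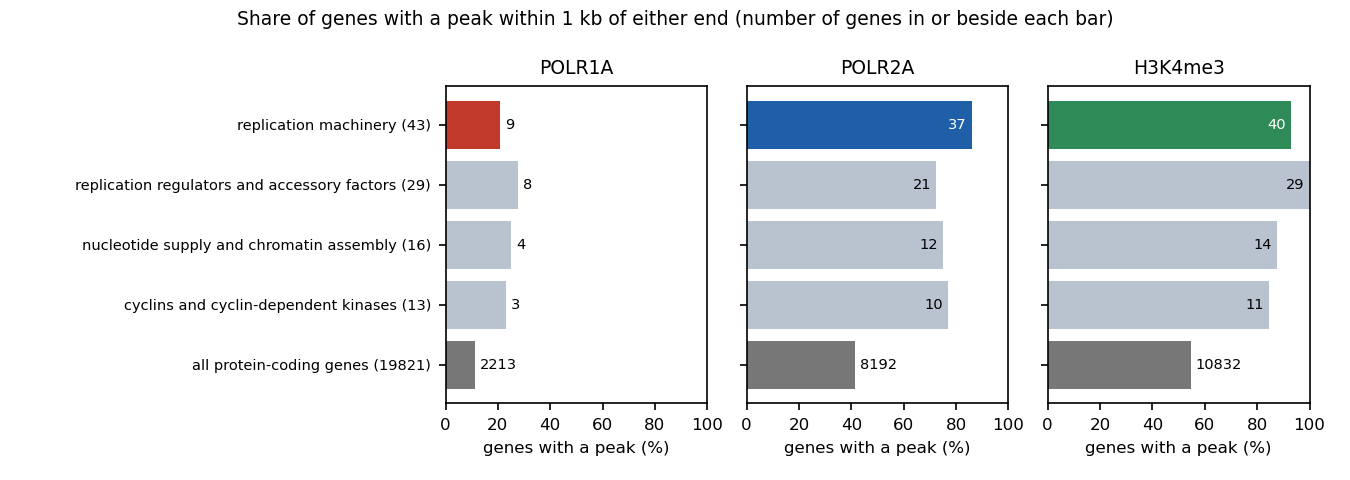
Percentage of genes with a POLR1A, POLR2A or H3K4me3 peak within 1 kb of either end, for the replication machinery, 3 related lists and all protein-coding genes, with list sizes in parentheses and the number of genes at each bar. The replication bars reach 20.9%, 86.0% and 93.0%, against 11.2%, 41.3% and 54.6% over all genes.

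The origin recognition complex held 3 of the 9 POLR1A genes and the strongest one. ORC6, which encodes the smallest ORC subunit, had a POLR1A fold enrichment of 12.1, rank 22 among the 2213 protein-coding genes with POLR1A. Its POLR1A peak spanned chr16:46688886-46689683 and its POLR2A peak, with a fold enrichment of 18.1, chr16:46688952-46689685. Both covered the start of ORC6 and ran towards VPS35, the retromer gene on its other side, whose end lies within 1 kb of these peaks, so the signal cannot be assigned to ORC6 or VPS35. ORC2 had a POLR2A value of 17.8 and the weakest POLR1A value of the 9 genes (4.31). ORC4 had 12.8 for POLR2A and 6.20 for POLR1A, both at its second listed start, 148020737 on chromosome 2. ORC3 had POLR2A (14.0) and the highest H3K4me3 value of the complex (16.5) without POLR1A. ORC5 was the weakest of the complex, with 4.53 for POLR2A and 10.5 for H3K4me3.

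ORC1, the ATPase subunit, shows a limit of the rule on gene ends. It had no peak within 1 kb of either end of its record on chromosome 1, but its listed start lies inside the record at 52404423. A POLR2A peak (chr1:52403860-52404715, fold enrichment 11.98) and an H3K4me3 peak (11.9) covered that start, close to the end of PRPF38A. An alternative chosen after seeing the data added every listed start to the gene ends. With these starts, POLR2A was found at 38 replication genes (43.9% of all genes) and H3K4me3 at 41 (57.7%). The POLR1A count stayed at 9 (12.04%), and H3K9me3 was found at 3 (2.94%), with PRIM2 added.

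Of the helicase loaders, CDC6 carried the strongest POLR2A peak of all 43 genes and CDT1 carried none. The CDC6 value was 21.5, rank 125 among 8192 protein-coding genes, with H3K4me3 at 12.4. CDT1 had H3K4me3 at 10.06, and the POLR2A peak nearest to its ends lay 2708 bp away (9.90). Neither loader had POLR1A.

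All 6 genes of the MCM2-7 helicase had POLR2A above the median of all genes with that target, and none had POLR1A. MCM4 was highest with a POLR2A value of 19.5 and had the lowest H3K4me3 value of the 40 genes with that mark, 6.49. The mark there was called as separate peaks of 6.05, 6.49 and 4.71. The 6.49 peak was 346 bp wide, the narrowest among the strongest H3K4me3 peaks of the 40 genes. The MCM4 end lies beside that of PRKDC, the catalytic subunit gene of DNA-dependent protein kinase. POLR2A values of the rest were 9.92 at MCM2, 10.2 at MCM3, 11.6 at MCM7, 12.04 at MCM5 and 12.3 at MCM6. H3K4me3 values ranged up to 14.6 at MCM3. The POLR1A peak nearest to an end of these 6 genes lay between 47.3 and 3720 kb away. Over all replication genes without POLR1A at an end, the median distance was 152 kb. Such distances were not computed over all protein-coding genes, so whether these are ordinary is not known. Of all protein-coding genes above the POLR2A median, 42.2% had POLR1A, as did 9 of 23 replication genes above it.

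CDC45 stood out among the remaining helicase and firing factors. It had a POLR2A value of 18.6 and was the only one of the 6 with POLR1A (6.12, chr22:19479396-19479710), at an end it shares with UFD1, a gene of protein degradation. MCM10, needed for origin firing, had 12.98 for POLR2A. The GINS genes were uneven, with POLR2A at 13.6 in GINS2, 10.05 in GINS4, 5.51 in GINS3 and 5.08 in GINS1. GINS1, the lowest of these in POLR2A, had the highest H3K4me3 value of all 43 genes (18.7), and GINS3 had 15.9.

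The replicative polymerase genes had POLR2A mostly near or below the median. In polymerase alpha and primase, POLR2A was 10.3 at POLA1, 9.98 at POLA2, 7.64 at PRIM2 and 7.31 at PRIM1. H3K4me3 was 16.3 at POLA1, and the 4 genes had no POLR1A. The POLR2A peak of PRIM2 lay at an end of its record near RAB23. It was not within 1 kb of a listed PRIM2 start, and those starts lie 93.3 and 96.1 kb inside the record. The peak thus cannot be assigned to PRIM2 or RAB23. In polymerase delta, the catalytic subunit gene POLD1 had POLR2A at 9.93 and POLR1A at 8.32 (chr19:50384066-50384266), the second highest POLR1A value at a gene end among the 43 genes, near NR1H2. POLD4 and POLD3 had POLR2A at 7.61 and 3.67, the latter the lowest of the 37 genes. POLD2 had H3K4me3 only (8.18). In polymerase epsilon, POLE3, a histone-fold subunit gene, had POLR2A at 13.2 and POLR1A at 4.76 (chr9:113410392-113410697), and POLE2 and the catalytic subunit gene POLE had POLR2A at 6.23 and 5.67.

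The clamp gene PCNA carried more POLR1A and POLR2A than any of the clamp loader genes. At the upstream end of its record, beside CDS2, POLR1A was 7.19 and POLR2A 13.01. A second listed start lies inside the PCNA record at 5119958 on chromosome 20, over 1 kb from both ends, and there all values were higher. The POLR1A peak there (chr20:5119498-5120146) had a fold enrichment of 9.56, the POLR2A peak (chr20:5119431-5120196) 19.95 and the H3K4me3 peak (chr20:5118995-5120356) 13.5. The RFC genes had no POLR1A. Their POLR2A values were 6.20 at RFC2, 5.87 at RFC3, 5.26 at RFC1 and 4.43 at RFC4, all below the median of all genes, while their H3K4me3 values ran from 12.97 at RFC2 to 18.7 at RFC5, which had no POLR2A at its ends. The POLR2A peak of RFC4 lay at the end opposite its start, near EIF4A2.

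For replication protein A, RPA2 had POLR2A at 16.7, H3K4me3 at 17.3 and POLR1A at 5.44 (chr1:27914635-27914884). RPA1, the large subunit, had POLR2A at 8.66 and H3K4me3 at 7.27. RPA3 had none at its ends, but POLR1A (4.64), POLR2A (18.2) and H3K4me3 (11.6) peaks lay 3638 to 3932 bp from an end inside its record, near an end of UMAD1. In Okazaki fragment maturation, LIG1 had POLR2A at 10.09 and POLR1A at 6.88 (chr19:48170365-48170667), near ZSWIM9, and FEN1 had POLR2A at 9.52 without POLR1A.

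The 9 POLR1A genes all belonged to the replication genes with stronger POLR2A. POLR2A in the 9 ranged from 9.93 to 18.6 with a median of 13.2, and in the 28 genes without POLR1A from 3.67 to 21.5 with a median of 9.09, so the ranges overlapped. Over all protein-coding genes the medians were 13.2 with POLR1A and 7.79 without. POLR1A was found at 9 of 23 replication genes above the POLR2A median (39.1%, against 42.2% of all such genes) and at 0 of 14 at or below it (against 9.69%). Over the 37 genes with POLR2A this came to 24.3%, against 26.0% of all genes with POLR2A. The share of POLR1A was thus close to that of all genes of like POLR2A strength. High POLR2A did not always come with POLR1A, since CDC6, MCM4, ORC3 and GINS2 were among 14 genes above the median without it. Within the 9 genes the strengths of both polymerases showed no common order (Spearman's rho −0.32 across 9 genes, against 0.58 across 2126 genes, a description with no test). The part of POLR2A strength in the POLR1A calls was not tested, and no control antibody list was used here.

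**Figure D3:**
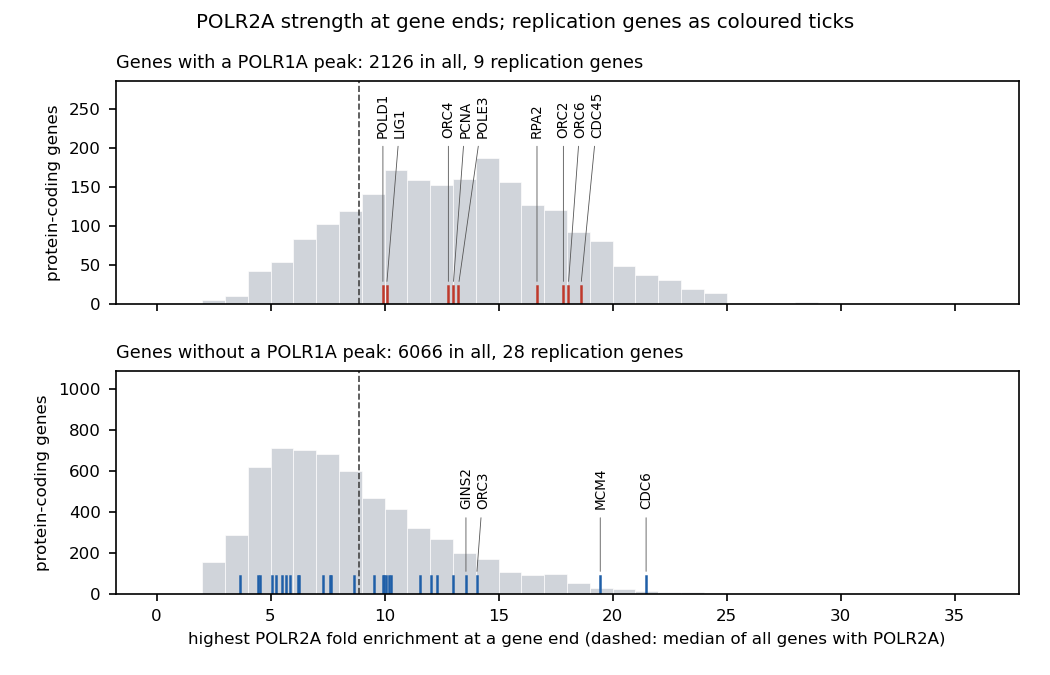
Number of protein-coding genes (grey bars) by their highest POLR2A fold enrichment at a gene end, for genes with a POLR1A peak (upper panel) and without (lower panel), with replication genes as coloured ticks and the median of all genes with POLR2A dashed. All 9 replication genes with POLR1A lie right of the dashed line, and the 28 without it lie on both sides, with CDC6 and MCM4 farthest right.

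Most of the POLR1A genes shared the bound end with a neighbour. Of the 37 replication genes with POLR2A, 16 had another protein-coding gene end within 1 kb of the POLR2A-bound end (43.2%, against 32.4% of all genes with POLR2A). POLR1A was found at 7 of these 16 genes (43.8%, against 33.9%) and at 2 of the 21 others, ORC2 and RPA2 (9.52%, against 22.1%). At those 7 genes, ORC4, ORC6, CDC45, POLD1, POLE3, PCNA and LIG1, a peak at the shared end counts for both genes. MCM2, MCM4, MCM7, ORC3 and FEN1 also shared an end with a neighbour and had no POLR1A.

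Where both polymerases were found, their peaks lay on top of each other, as at most genes with both. Over all protein-coding genes, 10.7% had both at the same end, and 10.5% had overlapping peaks there. The POLR1A and POLR2A summits were 61 bp apart at the median of the 9 genes, from 0 bp at ORC4 to 272 bp at CDC45. The POLR1A peak lay wholly inside the POLR2A peak at 7 genes, for 93.8% of its length at ORC4 and for 91.7% at ORC6. At these 9 genes the strongest POLR1A peak was 303 bp wide at the median and the strongest POLR2A peak 467 bp. Over all replication genes with the target, the median width was 290 bp for POLR2A and 1209.5 bp for H3K4me3.

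The position of each peak was read against the RefSeq starts listed for 37 of the 43 genes, with negative distances upstream and the strongest peak of each gene taken, which for PCNA is at its inner start. The nearest start was picked for each target apart, so the summits of a gene can refer to different starts. POLR2A lay within 1 kb of a listed start in 31 genes (83.8%, against 44.0% of all genes). Its summit was upstream of that start in 26 of them (83.9%, against 78.2% of all genes). The median summit was at −67 bp (−89 bp over all genes). H3K4me3 lay at a listed start in 36 genes, all but POLE4 (97.3%, against 58.5% of all genes). Its median summit was at +85 bp (+134 bp over all genes). In 15 of the 31 genes with both, CDC6, MCM3 and POLA1 among them, the POLR2A summit was upstream and the H3K4me3 summit downstream of the start. The same share was not computed over all genes. POLR1A summits lay at a median of −48.5 bp in 8 genes (−131 bp over all genes), 5 of them upstream (62.5%, against 77.99%).

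**Figure D4:**
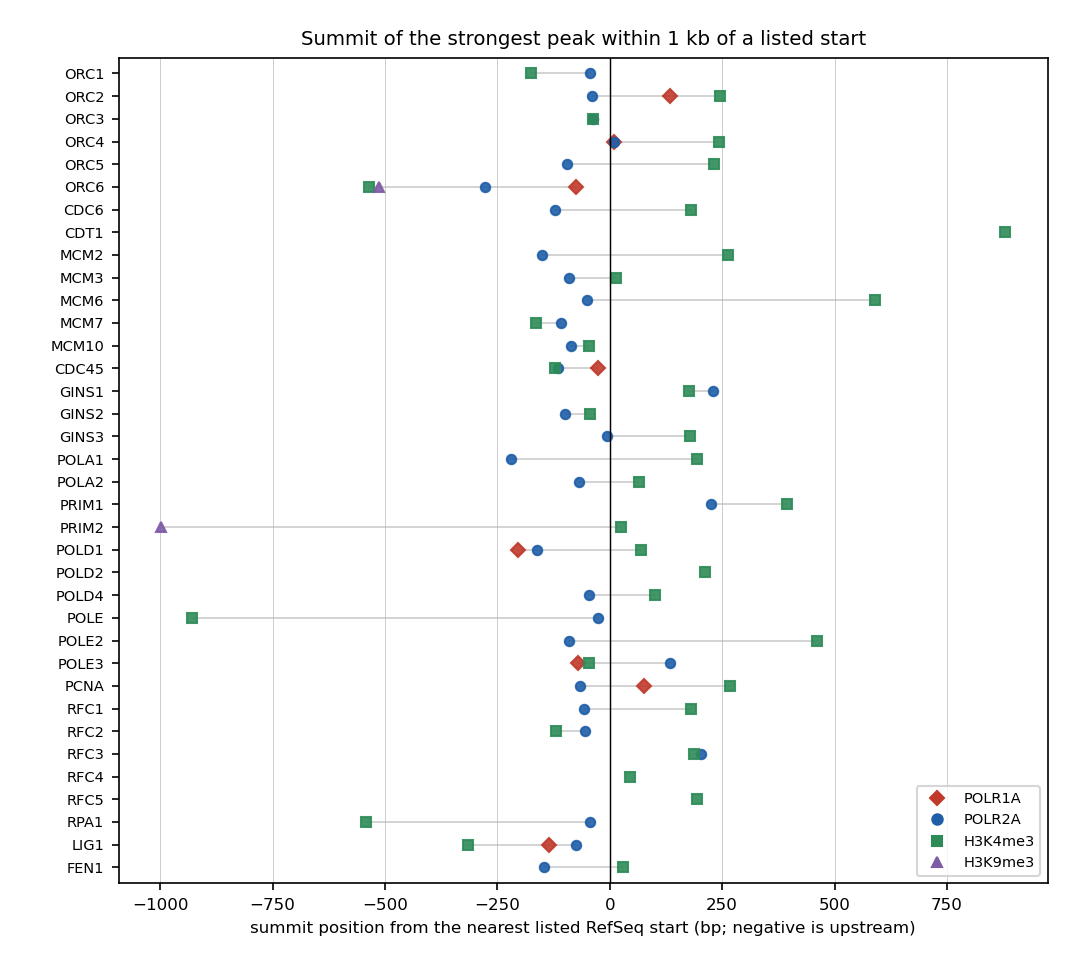
Distance in bp of peak summits from the nearest listed RefSeq start (0, negative upstream) for the strongest peak of each target within 1 kb of a listed start, with a gene per row and 1 colour per target. POLR2A summits gather just upstream of the start (median −67 bp) and H3K4me3 summits spread further downstream (median +85 bp). The nearest start was picked for each target apart. Summits in a row can thus refer to different starts, as for POLR1A and POLR2A at CDC45 and POLE3, and their order is then not shown.

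Some sequence motifs were more frequent in these promoters than in all promoters. The choice of genes did not use sequence, but many of these genes are known E2F targets. For each gene the 250 bases before the listed start nearest the gene end were searched on both strands. An E2F-type motif (TTTCCCGC, TTTCGCGC, TTTGCCGC or TTTGGCGC) was found in 13 of 37 replication promoters (35.1%), against 3.71% of 15813 protein-coding promoters. The 13 were CDT1, GINS2, LIG1, MCM3, MCM6, MCM7, ORC3, PCNA, POLA1, POLA2, POLE, POLE4 and RFC3. Only these exact letters were searched. The printed CDC6 stretch holds tttggcgg, which differs from TTTGGCGC in its last letter and was not counted. The count thus does not show that the other promoters lack an E2F site. The printed MCM6 stretch holds 4 such matches in 2 places, where forms on opposite strands overlap. A CCAAT box (CCAAT) was found in 21 (56.8%, against 34.4%), and CDC6 and PCNA held 3 each. The NRF1 motif (GCGCATGCG) was found in 4 (10.8%, against 2.38%), ORC6 among them, and the GC box (GGGCGG), which can share bases with E2F forms, in 25 (67.6%, against 55.8%). Shares of the ETS motif (CCGGAAG, 10.8% against 11.7%), the TATA box (TATAAA, 5.41% against 9.36%) and the E box (CACGTG, 10.8% against 7.79%) were nearer to those of all promoters, and the CHR letters TTTGAA were in 0 of 37 (10.9% of all). The median GC content was 65.2%, against 62.0% over all promoters.

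Motif and polymerase occupancy did not run together in a simple way. Promoters were grouped by the peaks that overlapped the searched 250 bases, at 1 start per gene, so the groups depend on the start used. ORC4 and POLE3 fell outside the POLR1A group. Before another listed start of each, 250 and 233 bases lay in a POLR1A peak. The E2F-type motif was present in 2 of 6 promoters under a POLR1A peak, in 9 of 24 under POLR2A without POLR1A and in 2 of 7 under neither. CCAAT boxes were in 3 of 6, 15 of 24 and 3 of 7. CDC45 held none at the start used, but 2 and 4 before its other listed starts. The POLE4 promoter printed above held both motifs and had no peak. A match describes the letters in this window and does not show that a factor binds.

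H3K9me3 was found at the ends of 2 replication genes, ORC6 and RPA2. At ORC6 its peak (chr16:46689109-46689505, fold enrichment 4.40) lay upstream of the start within the peaks of both polymerases and H3K4me3. At RPA2 the H3K9me3 peak (chr1:27914988-27915470, 4.89) began beyond the POLR1A peak and did not overlap it. Both H3K9me3 values were near the median of all genes with that mark (4.57), and neither peak reached a −log10 q of 5. Inside gene bodies, over 1 kb from both ends, 7 H3K9me3 peaks lay in 5 genes, with 5.74 at ORC5, 4.89 at POLD3, 4.22 at MCM5, 4.17 at ORC4 and 3.96 to 4.36 at 3 sites in PRIM2. Parts of PRIM2 have a near-identical copy in the genome, so peaks there are uncertain. The share of all protein-coding genes with an H3K9me3 peak in the body was not computed.

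The width of the window mattered for few genes. Just inside the limit of 1 kb lay the POLR2A peak of PRIM2, 730 bp inside its record from the end, and the POLR2A and POLR1A peaks of ORC4, 571 and 538 bp inside its record from the end. For the polymerases and H3K4me3, the nearest outside it were POLR2A at CDT1 (2708 bp), H3K4me3, POLR2A and POLR1A at RPA3 (3638, 3908 and 3932 bp) and H3K4me3 and POLR2A at ORC1 (4326 and 4788 bp). For H3K9me3 they were the peaks near RPA3 (4311 bp) and GINS1 (4383 bp).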

How the data were processed

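Peak lists of CUT&Tag in HCT116 cells were used as deposited, 1 for each of 4 targets in the narrowPeak format of MACS2. The fold enrichment (a linear ratio), −log10 q, an integer score derived from q and the summit offset of each peak are the authors' deposited values. The lowest −log10 q was just above 1 in each list. The submitters' processing notes list the builds hg38 and GRCh38 and, with no step assigned, DESeq2 1.44.0, HTSeq 2.0.2, RSEM 1.3.3, deepTools 3.1.1, SAMtools 1.6, STAR and FastQC 0.12.0. For the peak caller, settings, control and pooling are not given in the sources used. Per the labels' protocols, 100000 to 200000 cells entered each replicate, and replicates were made on separate days. Read depth is unknown from peak lists, so precision per peak cannot be given.

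Peaks were matched to RefSeq GRCh38.p14 gene ends (Python 3.11.15, pandas 2.3.3), with steps tested on simulated peaks. Starts and promoter sequences came from RefSeq for 37 of the 43 genes. The highest fold enrichment among peaks at an end stands for the gene. Genes named with values were all with POLR1A or H3K9me3, the 8 highest in POLR2A, the 6 highest in H3K4me3, those lacking a target, and the rest by role, with up to 4 per other list. A further planned gene list is not reported here. The genes and lists were chosen with earlier results of these data known. No test was made, for lack of values per replicate. Alternatives covered the window, the q threshold, equal list lengths, summits, the 5′ end and overlap of peaks.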

Additional observations from a re-analysis of the deposited data

How the results depend on the processing

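Of 58 alternative values computed, 51 stayed within 1.5 times the main value, counts and medians alike, and 7 did not. With peaks of −log10 q of at least 5, POLR1A was found at 4 replication genes, both polymerases at 4 and H3K9me3 at 0. All-gene shares were 5.36%, 5.31% and 0.59%. With lists of equal length, POLR2A was found at 20, H3K4me3 at 18 and H3K9me3 at 0, against 17.3%, 17.8% and 0.66% of all genes. At the 5′ end only, over 37 genes, H3K9me3 was found at 1, ORC6 (2.16% of all genes with a listed start). A window of 500 bp left POLR1A at 8 genes (10.1% of all genes), without ORC4, and POLR2A at 35 (37.9%). A window of 2 kb left them at 9 (12.1%) and 37 (44.7%). No paired analysis was possible because each target has 1 list without values per replicate, and no replicate could be left out for the same reason. Unknown depth and pooling limit any comparison of list lengths between targets, and the absence of a peak does not show the absence of the protein.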

Other observations

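Peaks inside the bodies of replication genes, over 1 kb from both ends, were left out of the counts at gene ends. POLR2A had 13 such peaks in 12 genes, with fold enrichments of 2.70 at POLA2 to 19.95 at PCNA. POLR1A had 3, at PCNA, RPA3 and PRIM2 (3.61 at PRIM2), and H3K4me3 had 5 in 4 genes. Shares of all protein-coding genes with such body peaks were not computed, so these counts have no background. At PRIM2, an H3K4me3 peak of 15.02 covered the listed start at 57317630 on chromosome 6, which lies 96.1 kb inside the gene record, with no POLR2A peak beside it.

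Across the 37 genes with both, POLR2A and H3K4me3 fold enrichments had a Spearman's rho of −0.21, and across 7886 protein-coding genes 0.01. Genes share the 2 lists, so this is a description. RFC5 and GINS1 had the highest H3K4me3 values (18.7 each). RFC5 had no POLR2A peak at its ends and is outside the 37 genes, and GINS1 had POLR2A at 5.08. MCM4, where H3K4me3 was split into separate peaks, had the lowest value of that mark (6.49) with POLR2A at 19.5. Other genes were high in both, such as RPA2 with 16.7 for POLR2A and 17.3 for H3K4me3.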
